A study of Mus musculus with 2 samples.

Results

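Transcripts of 10 genes of the BCL2 family were followed across the cells of the E15.5 mouse fetal ovary, with and without the glucocorticoid receptor (GR). The genes were taken by symbol from the count matrices of both libraries, where all 10 were found among 27998 genes. They comprise the effectors Bax and Bak1, the BH3-only genes Bad, Bid, Bbc3, Pmaip1 and Bcl2l11, and the survival genes Bcl2, Bcl2l1 and Mcl1. The study addressed what GR does in female germ cells, and the question here is how pro-death and survival transcripts are balanced in germ cells of each stage and in the somatic cells around them. KO embryos were homozygous for a deletion of exon 3 of Nr3c1, the gene encoding GR, made from the floxed allele Nr3c1tm1.1Jda with a β-actin cre that acts throughout the body, so germ and somatic cells both carried the deletion. WT controls had intact Nr3c1, and embryos of both groups carried Tg(Pou5f1-EGFP)2Mnn, which labels germ cells with GFP. Ovaries were pooled by genotype, from 4 WT embryos and from 2 KO embryos, and sorted GFP-positive germ cells were put back together with GFP-negative somatic cells at 60 to 40. Each pool gave 1 library, so there was no replicate, and genotype cannot be told apart from the pool of embryos, the sort or the capture.

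The BCL2 family governs the mitochondrial route to cell death. BAX and BAK1 open pores in the outer mitochondrial membrane, the survival proteins BCL2, BCL2L1 and MCL1 hold them in check, and BH3-only proteins tip this balance by binding the survival proteins or by activating the effectors. Many germ cells of the fetal ovary die as they pass through meiotic prophase I, and the family is known to act in this loss of oocytes.

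Bax (ENSMUSG00000003873) lies on chr7:45461697-45466898 and Bak1 (ENSMUSG00000057789) on chr17:27019810-27029009 in GRCm38, both on the minus strand. Of the BH3-only genes, Bad lies on chromosome 19, Bid on chromosome 6, Bbc3 on chromosome 7 and Bcl2l11 on chromosome 2. The survival gene Bcl2 (ENSMUSG00000057329) spans chr1:106538178-106714274 on the minus strand, Bcl2l1 lies on chromosome 2 and Mcl1 on chromosome 3. All are protein-coding in GENCODE M21. Exons of Bak1, Bad, Bid and Bcl2 overlap those of a counted gene on the other strand (Ggnbp1, Gpr137, Bcl2l13 and D630008O14Rik), and whether the counting used strand is not given in the sources used here, so the counts of these 4 members could include reads of their neighbours. Exons of Bax overlap those of Gm45808, a protein-coding gene on the same strand that the matrices do not list, whose reads could count as Bax. The promoters of 2 genes are shown, as the 250 RefSeq bases before the annotated start in GRCm38.p6, read 5′ to 3′ along the gene. Bax is shown because it led the pro-death transcripts and Bcl2 because it was lower in KO somatic cells, and capitals mark the p53 half-site motif, a pair of which makes up the element that p53, an activator of Bax, is known to bind.
Bax, chr7:45466899-45467148, minus strand: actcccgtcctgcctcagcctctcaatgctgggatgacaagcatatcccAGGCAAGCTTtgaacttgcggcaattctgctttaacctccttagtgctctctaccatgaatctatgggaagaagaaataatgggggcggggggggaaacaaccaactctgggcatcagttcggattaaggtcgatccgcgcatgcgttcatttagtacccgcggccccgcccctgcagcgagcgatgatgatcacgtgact
Bcl2, chr1:106714291-106714540, minus strand: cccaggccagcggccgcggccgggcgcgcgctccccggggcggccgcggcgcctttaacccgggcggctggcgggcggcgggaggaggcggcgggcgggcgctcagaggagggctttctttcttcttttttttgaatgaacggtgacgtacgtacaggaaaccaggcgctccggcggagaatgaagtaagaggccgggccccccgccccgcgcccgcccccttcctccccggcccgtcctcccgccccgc
The p53 half-site motif was searched on both strands in 15 such promoters of 9 members, Pmaip1 left out, and was found in 1 of them (Bax, from base 50), against 7.13% of 32851 promoters of all genes. The palindromic GR consensus motif was found in 0 of the 15 and in 0.387% of all promoters. These are matches of letters in a short window, and their absence says nothing of either factor.

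The deposited matrices held 11430 WT and 17829 KO barcodes, 75 of which were the same in both, and 9045 WT and 15502 KO cells were kept. Kept KO cells were shallower, with a median of 10194.5 unique molecular identifiers (UMIs, each counting 1 captured transcript) against 15685 in WT. Germ-like cells numbered 6791 in WT and 10189 in KO, and somatic cells 2254 and 5313. Nr3c1 was lower in KO in every class and stage with 100 UMIs, by log2 ratios of −1.90 to −2.80. This is the direction the labels give, although UMIs from near the 3′ end lie outside the deleted exon 3 and do not show the deletion itself. Markers of germ cells stood in somatic cells at a median of 12.2% of their germ-like level in WT and 18.3% in KO, so levels in somatic classes hold carried-over germ transcripts. Levels are given as CPM, the UMIs of a gene per 1000000 UMIs of the class, with 95% intervals that cover counting error only. A UMI is counted once from near the 3′ end of a transcript, so CPM of different genes were compared without division by length.

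Germ-like cells were followed through 4 groups of cells, which were clustered without the 10 genes. The first, led by Phlda2, held 283 WT and 593 KO cells and had the highest levels of most premeiotic markers (Pou5f1 was as high in late prophase-like cells), but its leading genes also included Rec8 and Msx1 of meiotic entry, so it was given no stage name. Meiotic entry-like cells numbered 903 in WT and 2066 in KO, and recombination-like cells 3038 and 4762. Both names are loose. Stra8, Rec8, Zglp1 and Msx1 of the entry list were higher in Phlda2-led cells. Stra8 was at 1666 CPM there in WT and 1565 in KO, against 711 and 873 in entry-like cells. Meioc and Rhox13 were higher in entry-like cells. Of the recombination list, Prdm9, Rad51ap2, Meiob and Mei1 were higher in entry-like than in recombination-like cells (Prdm9 284 against 244 CPM in WT). Dmc1, Spo11 and Spata22 were lower. Late prophase-like cells numbered 2496 (27.6% of kept WT cells) and 2658 (17.1% of kept KO cells). Their name rests on 3 of 7 markers, and Figla, a late marker, was at 178 CPM there in WT against 217 in entry-like cells. The late group was also not alike in the libraries, since the late marker Sohlh1 was at 31.3 CPM in WT and 9.12 in KO, and its median depth was 17455 and 7772 UMIs. A further cluster of 181 cells, 81.77% of them called as doublets, was left out of the 4 groups but stays in the values for all germ-like cells.

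Bax was the most abundant pro-death transcript of the germ-like cells, and Mcl1 and Bcl2l1 supplied most survival transcripts. Of the 29055 UMIs of the 10 genes in WT germ-like cells, Bax made up 34.2% (33.7 to 34.8), Mcl1 32.1% and Bcl2l1 19.6%. The KO shares were 34.2%, 33.4% and 19.2% of 27593 UMIs. In somatic cells the order was another: Mcl1 led with 30.6% in WT and 29.0% in KO, Bax followed with 22.7% and 24.5%, and Bad held 21.4% and 22.5%. Bad made up 3.25% of the WT germ-like sum, and Bcl2 made up 1.29% there against 7.33% in WT somatic cells.

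**Figure D1:**
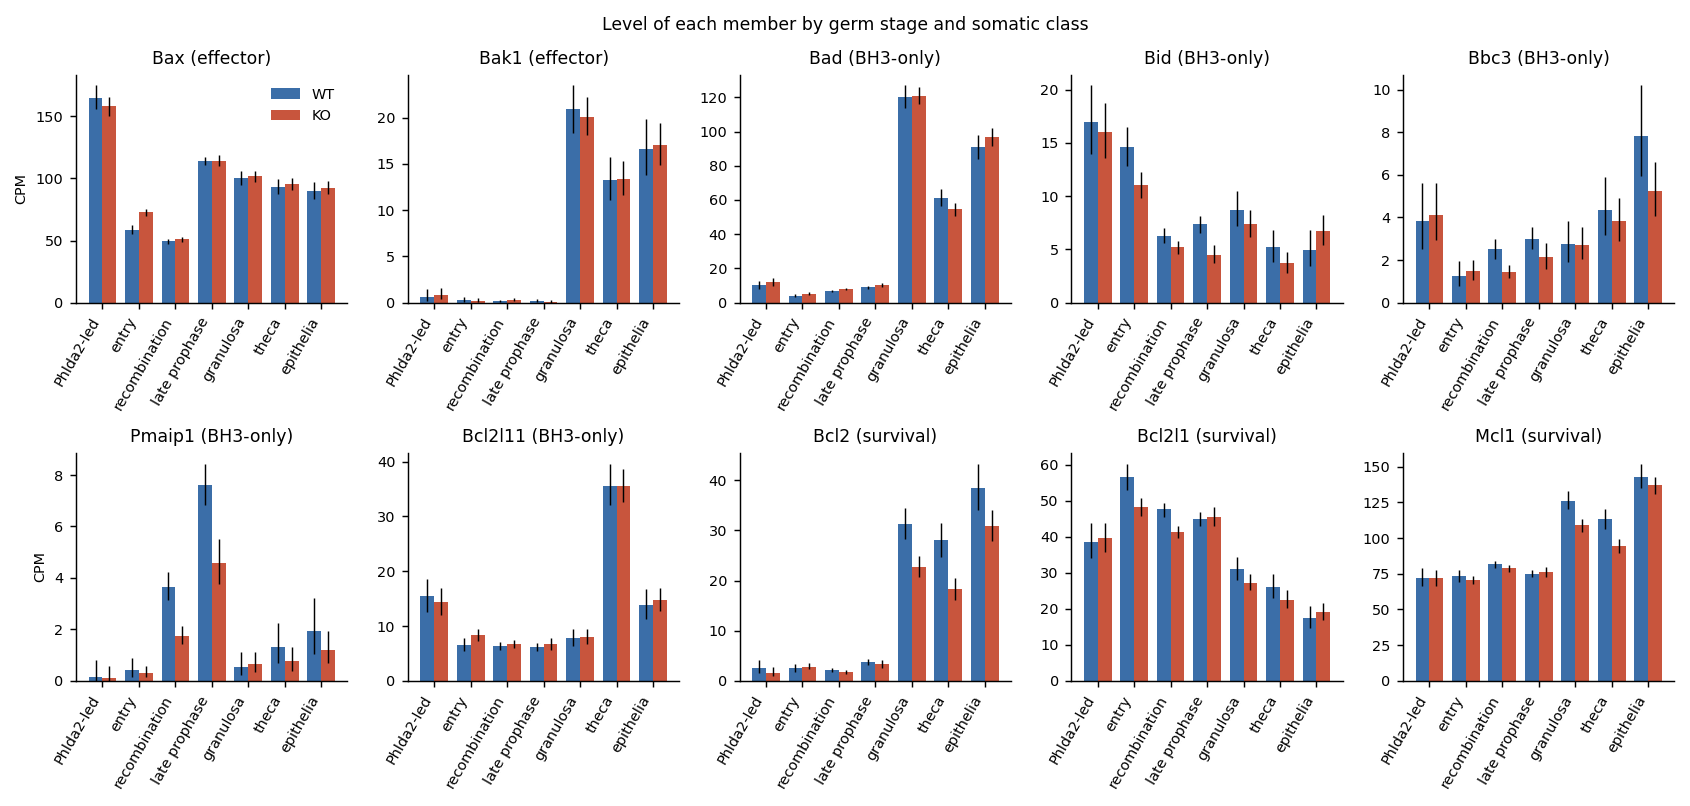
Level of each of the 10 genes in CPM (vertical axes, each with its own scale) in 4 germ groups and 3 somatic classes, with WT in blue and KO in red. Bars are 1 library each and lines are 95% counting intervals; Bax falls from 165 CPM in WT Phlda2-led cells to 49.6 in recombination-like cells and stands at 114 in late prophase-like cells, while Bak1 stays under 1 CPM in every germ group.

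Bax, the effector that opens the mitochondrial membrane, had a U-shaped course over the germ groups. In WT its level was 165 CPM (156 to 175) in Phlda2-led cells, 58.7 (55.1 to 62.5) in entry-like cells, 49.6 (47.6 to 51.6) in recombination-like cells and 114 (111 to 117) in late prophase-like cells. The KO levels in the same order were 158 (150 to 166), 72.7 (69.6 to 75.8), 51.0 (49.2 to 52.9) and 114 (110 to 119). Both libraries thus had their lowest level in recombination-like cells, and the intervals of neighbouring groups did not overlap in either. When germ-like cells were instead grouped by their highest marker score, the recombination group was again lowest, with 45.8 CPM in WT and 48.0 in KO, but the first group was at 101 in both and the late group at 108 and 88.2. After each cell was thinned to 3000 UMIs, the share of cells with a Bax UMI in the 4 groups was 34.3%, 15.8%, 13.1% and 29.4% in WT and 40.8%, 18.2%, 13.5% and 25.5% in KO. The shares without thinning were 90.5%, 55.0%, 48.8% and 76.2% in WT, and in KO they were 84.8%, 56.0%, 39.8% and 54.6% for Phlda2-led, entry-like, recombination-like and late prophase-like cells.

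Bax differed little among the 3 main somatic classes. It was at 100 CPM in WT and 102 in KO granulosa-like cells, 93.2 and 95.3 in theca-like cells and 90.1 and 92.5 in epithelia-like cells, and carried-over germ transcripts would account for 10.0 CPM of the WT and 14.3 of the KO somatic level. The small immune-like class (31 WT and 50 KO cells) stood higher, at 199 and 171 CPM, as did the endothelia-like class at 186 (145 to 235) and 127, and the erythroid-like class was lower, at 70.5 and 43.0. Germ markers stood in erythroid-like cells at 37.5% of their germ-like level in WT and 53.9% in KO. In endothelia-like cells they stood at 1.93% and 23.4%. Doublet calls made up 36.62% of erythroid-like and 22.29% of endothelia-like cells, so these levels hold differing parts of carried-over germ transcripts.

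Bak1, the second effector, was near the limit of detection in germ-like cells. Its level there was 0.307 CPM (37 UMIs, 0.216 to 0.423) in WT and 0.346 (42 UMIs, 0.249 to 0.467) in KO, against 17.9 and 17.4 CPM in somatic cells. The doublet-rich cluster held 12 of these 37 WT UMIs and 7 of these 42 KO UMIs. A Bak1 UMI was found in 0.545% of WT and 0.402% of KO germ-like cells and in 21.5% and 15.3% of somatic cells, at median depths of 17109 and 11317 UMIs for germ-like cells and 12413 and 8452 for somatic cells. Somatic cells were thus shallower and yet held Bak1 more often in both libraries. Granulosa-like cells had the highest of the 3 main somatic levels, 20.9 CPM in WT and 20.1 in KO, with intervals that overlapped those of epithelia-like cells.

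Bad, a BH3-only gene whose protein binds BCL2 and BCL2L1, was also mainly somatic. It was at 7.84 CPM in WT and 8.43 in KO germ-like cells and at 92.0 and 89.9 in somatic cells. Granulosa-like cells held 120 and 121 CPM, epithelia-like cells 90.8 and 96.6, and theca-like cells 61.2 and 54.5. The order granulosa, epithelia, theca held in both libraries, and each step exceeded the counting intervals.

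Bid, whose protein is cut by caspase-8 and then activates the effectors, was highest early. In WT its level was 17.0 CPM (14.0 to 20.4) in Phlda2-led cells, 14.6 in entry-like cells, 6.29 in recombination-like cells and 7.34 (6.58 to 8.17) in late prophase-like cells. In KO the levels were 16.0, 11.0, 5.19 and 4.50 (3.69 to 5.43). The late group therefore stood above the recombination group in WT and below it in KO, with overlapping intervals in both.

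Bcl2l11, which encodes the BH3-only protein BIM, was higher in Phlda2-led cells than in the other germ groups. Its level was 15.4 CPM (12.5 to 18.6) there in WT and 14.3 in KO, and lay between 6.16 and 6.55 CPM in the other 3 WT groups and between 6.70 and 8.32 in the KO groups. Theca-like cells held 35.6 CPM (32.0 to 39.6) in WT and 35.5 in KO, more than granulosa-like cells with 7.83 and 8.02. It was highest in immune-like cells, at 114 and 99.4 CPM.

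Pmaip1, which encodes the MCL1-binding BH3-only protein NOXA and is a known target of p53, lies on chromosome 18 and was the member with the steepest course over the germ groups. A single UMI was counted in Phlda2-led cells of each library, 0.148 CPM in WT and 0.103 in KO. Entry-like cells held 0.425 CPM (7 UMIs) and 0.308 (9 UMIs), recombination-like cells 3.65 (180 UMIs, 3.14 to 4.23) and 1.76 (101 UMIs, 1.44 to 2.14), and late prophase-like cells 7.60 (353 UMIs, 6.83 to 8.44) and 4.58 (109 UMIs, 3.76 to 5.53). The level thus stepped up in the recombination-like group and again in the late group in both libraries, and was lower in KO at both steps. These transcripts were spread over cells, since no WT germ-like cell held more than 4 UMIs of Pmaip1 and no KO cell more than 2. The low first level depends on the grouping: by highest marker score the first group held 4.99 CPM in WT and 1.99 in KO, the entry group 2.56 and 0.949, the recombination group 3.19 and 1.59 and the late group 7.07 and 3.08. Granulosa-like cells held 0.553 CPM in WT, where 0.496 would be carried over, and 0.664 in KO, where 0.302 would be. Immune-like cells were at 47.3 CPM (20 UMIs) in WT and 24.4 (13 UMIs) in KO, and germ markers stood at 1.76% and 14.2% of their germ-like level there.

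Bbc3, which encodes the p53-induced BH3-only protein PUMA, was low in germ-like cells. It was at 2.62 CPM (316 UMIs) in WT and 1.79 (218 UMIs) in KO germ-like cells, against 4.82 and 4.27 CPM in somatic cells. Epithelia-like cells held 7.84 CPM in WT and 5.23 in KO, and the small endothelia-like class held 7 and 24 UMIs. Over the 4 germ groups it was at 3.84, 1.27, 2.50 and 3.01 CPM in WT and at 4.13, 1.47, 1.43 and 2.14 in KO. A few cells held many UMIs each: 4 WT germ-like cells with 5 or more held 48 of the 316 (15.2%), and 1 KO cell held 18 of the 218 (8.26%).

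Bcl2, the founding survival gene, was a minor transcript of germ-like cells, at 3.11 CPM in WT and 2.39 in KO, and reached 31.5 and 23.0 in somatic cells. Its highest main somatic level was in epithelia-like cells, 38.5 CPM (34.1 to 43.3) in WT and 30.8 (27.9 to 34.0) in KO. Bcl2l1, which encodes BCL-XL, was by contrast higher in germ-like cells, at 47.3 and 43.6 CPM against 26.1 and 24.0 in somatic cells, of which 5.76 and 7.99 would be carried over. Over the germ groups it was at 38.7, 56.5, 47.6 and 45.0 CPM in WT and at 39.7, 48.2, 41.2 and 45.6 in KO, so entry-like cells held the most in both, although in KO the interval of the late group reached theirs. Mcl1, whose protein turns over quickly, was the flattest member in germ-like cells. It lay between 72.3 and 81.6 CPM over the 4 WT groups and between 70.6 and 78.8 over the KO groups, and was at 131 and 116 CPM in somatic cells.

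The balance, taken as the UMIs of the 7 pro-death genes divided by those of the 3 survival genes, followed Bax. In WT it was 1.87 (1.71 to 2.04) in Phlda2-led cells, 0.647 (0.604 to 0.692) in entry-like cells, 0.574 (0.551 to 0.598) in recombination-like cells and 1.19 (1.15 to 1.23) in late prophase-like cells. In KO it was 1.81 (1.68 to 1.95), 0.814 (0.775 to 0.856), 0.612 (0.589 to 0.635) and 1.14 (1.08 to 1.20). Survival transcripts outnumbered pro-death transcripts in entry-like and recombination-like cells of both libraries, and pro-death transcripts outnumbered them in the Phlda2-led and late prophase-like groups. Grouped by marker score the balance was 1.17, 0.989, 0.509 and 1.16 in WT and 1.15, 1.06, 0.550 and 0.986 in KO. The low point in the recombination group thus held, while the entry group and the KO late group lay near 1. Over all germ-like cells the balance was 0.885 (0.864 to 0.905) in WT and 0.864 (0.843 to 0.884) in KO, intervals that overlap.

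The 3 main somatic classes lay above 1 in both libraries. The balance was 1.39 (1.31 to 1.46) in WT and 1.65 (1.58 to 1.72) in KO granulosa-like cells, 1.28 (1.20 to 1.37) and 1.53 (1.45 to 1.62) in theca-like cells, and 1.13 (1.06 to 1.22) and 1.25 (1.19 to 1.32) in epithelia-like cells. The small endothelia-like, immune-like and erythroid-like classes lay between 0.830 and 1.12, with intervals that included 1. The side of 1 on which a group fell depended on single members, in most groups on Bax. Without it the balance over the 4 germ groups was 0.414, 0.204, 0.197 and 0.268 in WT and 0.418, 0.217, 0.193 and 0.226 in KO, and in the granulosa, theca and epithelia classes it was 0.854, 0.724 and 0.682 in WT and 1.01, 0.826 and 0.756 in KO. Of the values of these 7 groups that lay above 1 with all members, the one of KO granulosa-like cells alone did not fall under 1, and at 1.01 it lay close to it. Without Bad, granulosa-like (0.747 in WT, 0.886 in KO), epithelia-like (0.678 and 0.735) and WT theca-like cells (0.916) also fell under 1, but not KO theca-like cells (1.13). Without Mcl1, entry-like (1.45 and 1.94) and recombination-like cells (1.52 and 1.73) rose above 1. Without Bcl2l1, entry-like cells did (1.13 and 1.35).

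The 2 kinds of cell also differed in the ratio of Bax to each survival gene, although Mcl1 led the survival genes in both. There were 26.5 Bax UMIs for each Bcl2 UMI in WT germ-like cells and 32.4 in KO, against 3.10 and 4.24 in somatic cells. For Bcl2l1 the ratios were 1.74 and 1.78 in germ-like cells against 3.73 and 4.07 in somatic cells. For Mcl1 they were 1.07 and 1.02 against 0.743 and 0.845. Set against Mcl1, the ratio was 2.28 in WT and 2.20 in KO Phlda2-led cells, 0.608 and 0.648 in recombination-like cells and 1.52 and 1.50 in late prophase-like cells. Because these ratios count transcripts, they say nothing of protein levels or of which proteins are bound to one another.

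**Figure D2:**
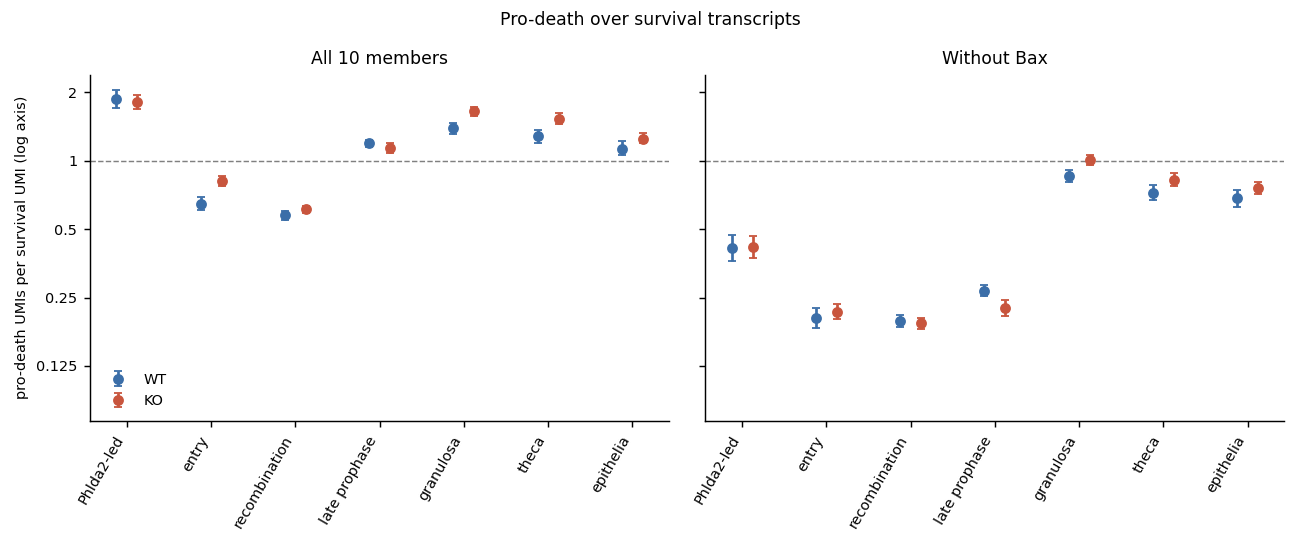
Pro-death UMIs per survival UMI (log axis) in 4 germ groups and 3 somatic classes, with all 10 genes on the left and without Bax on the right; points are 1 library each (WT blue, KO red) and lines are 95% counting intervals. With Bax the values run from 0.574 in WT recombination-like cells to 1.87 in WT Phlda2-led cells, and without it the germ groups lie between 0.193 and 0.418 in both libraries.

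Compared directly within a library, late prophase-like cells differed from Phlda2-led cells past the limit in 3 BH3-only genes, under this grouping. Pmaip1 was higher, with a log2 ratio of 5.69 (3.20 to 10.99) in WT and 5.47 (2.96 to 10.79) in KO, each resting on a single UMI in Phlda2-led cells. Bid was lower, by −1.21 in WT and −1.83 in KO, and Bcl2l11 was lower, by −1.32 and −1.09. These 3 passed a log2 ratio of 1 among 9 members with at least 100 UMIs over both groups in WT and among 7 in KO, and 29.5% of all genes with 100 UMIs passed it in WT and 28.7% in KO, so these counts are not read as a result about the members. By marker score none of the 3 passed: Pmaip1 was at 0.50 in WT and 0.63 in KO, Bid at −0.69 and −0.80, and Bcl2l11 at −0.64 and −0.21.

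Late prophase-like cells were also set against recombination-like cells, a comparison added after the levels had been seen. Bax was higher by a log2 ratio of 1.20 (1.13 to 1.27) in WT and 1.16 (1.09 to 1.24) in KO, and Pmaip1 by 1.06 (0.79 to 1.32) and 1.38 (0.97 to 1.78). Bcl2 was higher too, by 0.80 and 0.92, under the limit. Thus 2 of 9 members passed a log2 ratio of 1 in each library, against 10.1% of all genes in WT and 8.71% in KO.

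Germ-like and somatic cells of the same library differed in 5 of 10 members by a log2 ratio of 1 or more, in each library. In WT the lower genes in germ-like cells were Bak1 at −5.87 (−6.39 to −5.39), Bad at −3.55, Bcl2 at −3.34 and Bcl2l11 at −1.52, and Pmaip1 was higher at 1.38. In KO they were Bak1 at −5.65, Bad at −3.41, Bcl2 at −3.27, Bcl2l11 at −1.38 and Bbc3 at −1.25, all lower, and Pmaip1 was at 0.75. Of all genes, 57.9% passed this limit in WT and 55.4% in KO, so such a count is near the background of the comparison. Bax was among the least different members, with −0.24 in WT. The germ-like side includes the doublet-rich cluster, which held 12 Bak1, 59 Bad and 30 Bcl2 UMIs in WT.

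**Figure D3:**
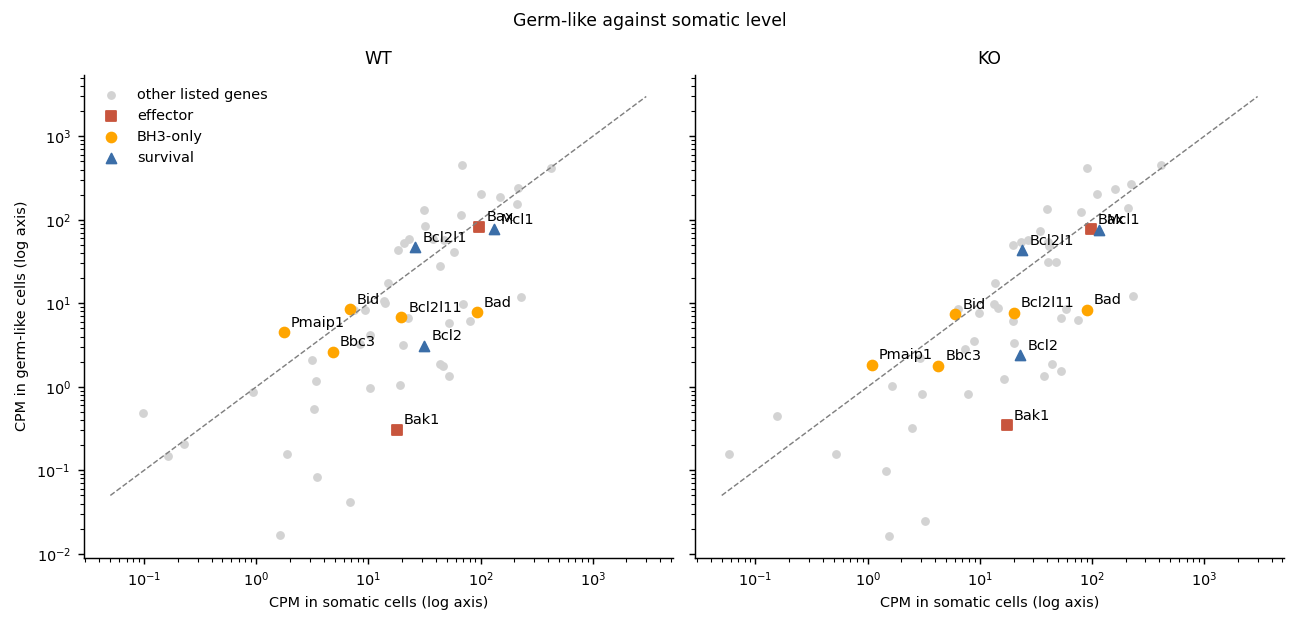
CPM in germ-like cells against CPM in somatic cells (both log axes) in WT (left) and KO (right) for the 10 genes by role and for other listed apoptosis genes in grey; the dashed line marks equal levels. Bak1, Bad and Bcl2 lie furthest below the line, at log2 ratios of −5.87, −3.55 and −3.34 in WT, and Pmaip1 and Bcl2l1 above it.

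KO and WT were close for most members, and each member past a log2 ratio of 0.5 (1.41-fold) was lower in KO. In all germ-like cells 2 of 9 members with 100 UMIs passed it, against 7.96% of all genes: Pmaip1 at −1.31 (−1.54 to −1.08) and Bbc3 at −0.55 (−0.80 to −0.29). The median log2 ratio of these 9 was −0.12, against −0.055 over all genes tested. Bax was at −0.086 and Mcl1 at −0.029, and Bcl2 was at −0.38 (−0.60 to −0.15).

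Late prophase-like cells, where Pmaip1 was highest among the germ groups, were less frequent in the KO library. With both libraries set to the WT stage proportions, an alternative added after the values had been seen, Pmaip1 was at −0.82, Bbc3 at −0.48 and Bax at 0.038. These values also leave out the doublet-rich cluster. Whether the mix of stages accounts for the germ-like differences was not tested.

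Within stages Pmaip1 was lower in KO at the 2 stages where it was well counted. Its log2 ratio was −1.05 (−1.42 to −0.69) in recombination-like cells and −0.73 (−1.05 to −0.42) in late prophase-like cells, and by marker score it was −1.01 and −1.20. The 3 clusters that form the recombination-like group held 3.59, 3.03 and 4.43 CPM in WT and 1.77, 1.83 and 1.72 in KO. The share of germ-like cells with a Pmaip1 UMI after thinning was 1.34% in WT and 0.667% in KO. In late prophase-like cells the thinned shares were 2.08% and 1.58%, closer than the CPM. The lower Sohlh1 level and the lower depth of the KO late group stand beside these values, and their part in them was not tested. Over all somatic cells Pmaip1 was also lower in KO, at 1.75 CPM (54 UMIs) in WT and 1.09 (56 UMIs) in KO, with overlapping intervals. Carried-over germ transcripts would account for 0.552 and 0.335 CPM of these levels. Granulosa-like cells went the other way, with 0.553 CPM in WT and 0.664 in KO.

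In recombination-like cells 2 of 9 members passed 0.5, against 5.67% of all genes, namely Pmaip1 and Bbc3, the latter at −0.80. Without the cells holding 5 or more Bbc3 UMIs, which carried 38 UMIs (30.9%) of the WT recombination-like total, Bbc3 was at −0.27 (−0.73 to 0.18), and by marker score at −0.18. In late prophase-like cells 2 of 9 passed, against 5.93%: Pmaip1, and Bid at −0.71 (−1.03 to −0.39), while Bax was at 0.0026. By marker score Bid was at −0.30, within the limit, Bbc3 at −0.67 and Bax at −0.29. No member passed in Phlda2-led cells (0 of 6, against 5.01% of all genes) or in entry-like cells (0 of 7, against 6.37%). The shift of the balance in entry-like cells, from 0.647 to 0.814, is a log2 ratio of 0.33 (0.21 to 0.45). It came with Bax at 0.31 (0.20 to 0.42) and Bcl2l1 at −0.23, each within the limit. By marker score Bax in the entry group was 93.9 CPM in WT and 96.4 in KO, so this difference depends on the grouping.

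In somatic cells the member that differed most steadily between the libraries was Bcl2, whose level was lower in KO in each main class. Granulosa-like cells held 31.3 CPM (28.3 to 34.5) in WT and 22.7 (20.7 to 24.9) in KO, and their log2 ratio was −0.46 (−0.66 to −0.26). Theca-like cells held 28.0 CPM (24.8 to 31.5) and 18.3 (16.2 to 20.5), with −0.62 (−0.86 to −0.37) as the log2 ratio. In epithelia-like cells the ratio was −0.32 (−0.54 to −0.096). Germ markers stood in theca-like cells at 15.4% of their germ-like level in WT and at 23.4% in KO, and with carried-over germ transcripts taken off the 3 ratios were −0.38, −0.49 and −0.28, so theca-like Bcl2 then lay just inside the limit. The reads of the overlapping D630008O14Rik could not be told apart from those of Bcl2 if strand was not used.

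Mcl1 was lower in KO by −0.22 in granulosa-like and −0.26 (−0.37 to −0.15) in theca-like cells, while Bax in theca-like cells was at 93.2 CPM in WT and 95.3 in KO. The balance was higher in KO by a log2 ratio of 0.25 (0.15 to 0.35) in granulosa-like cells, 0.26 (0.13 to 0.38) in theca-like cells and 0.14 in epithelia-like cells. Past the limit of 0.5 stood 0 of 8 members in granulosa-like cells, against 6.09% of all genes, and 1 of 9 in theca-like cells, Bcl2, against 6.73%. In epithelia-like cells it was 1 of 9, Bbc3 at −0.58 (−1.11 to −0.054), against 4.24%. By the study's own measure of size, a difference of 0.25 in the natural log of counts per 10000 plus 1, no member passed in any of these classes and stages, where 17 to 39 of all genes did. A gene at a low level cannot pass this measure even if wholly lost. Pmaip1, at 7.60 CPM in WT late prophase-like cells, is such a gene, so for low members this result says nothing of a difference.

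**Figure D4:**
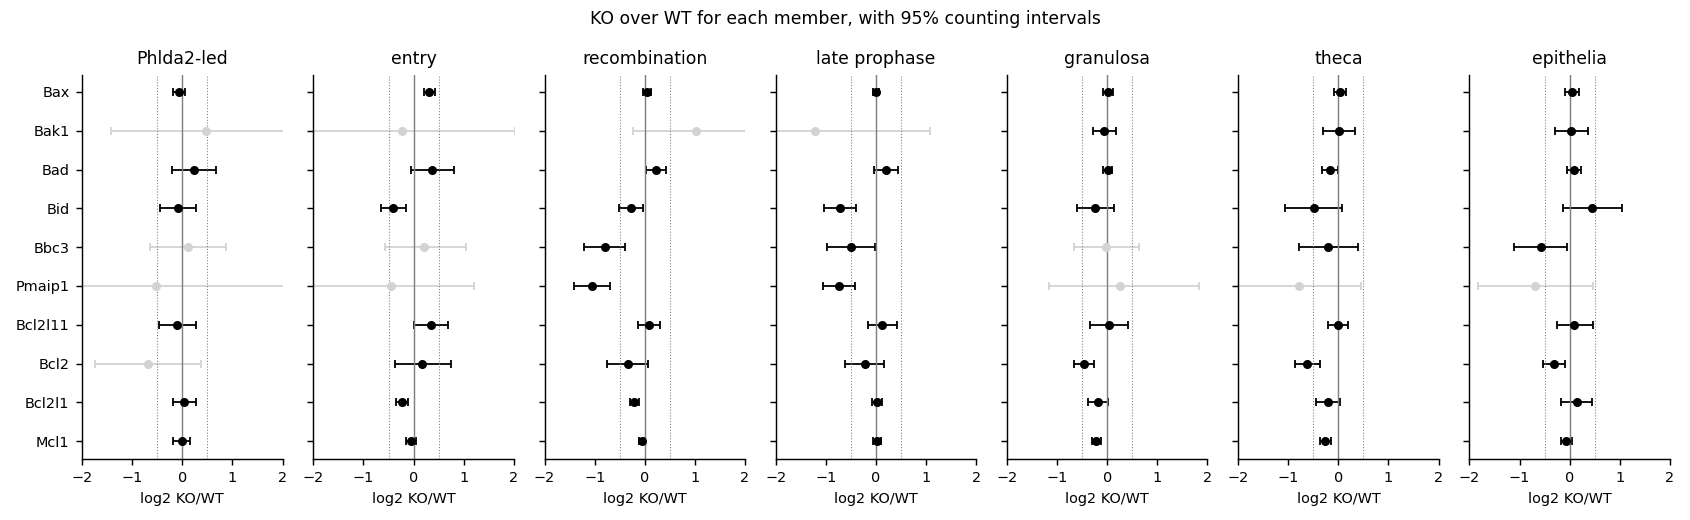
Log2 ratio of KO over WT CPM for the 10 genes in 4 germ groups and 3 somatic classes, with 95% counting intervals; grey points have under 100 UMIs over both libraries and dotted lines mark ±0.5. Pmaip1 lies at −1.05 in recombination-like and −0.73 in late prophase-like cells and Bcl2 at −0.62 in theca-like cells, while Bax lies at or near 0 except in entry-like cells, where it is 0.31.

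Other genes of the pathway also differed between germ and soma, in a comparison where 57.9% of all genes passed in WT. Among the other BCL2 family genes, 1 of 9 with 100 UMIs was higher and 5 were lower in WT germ-like cells by a log2 ratio of 1. Bok, a further effector-like member, was at 1.33 CPM in germ-like and 51.8 in somatic cells (−5.28), the survival gene Bcl2l2 was at −3.41, the BH3-only gene Bmf at −1.53, and Bnip3 was higher at 1.34. The lower Bcl2a1b and Bcl2a1d are close paralogs and are uncertain. Of 15 caspase-pathway genes 2 were higher, Diablo at 1.01 and Endog at 1.26, and 6 were lower, among them Casp8, the initiator of the death receptor route, at −4.19, Casp9, the initiator of the mitochondrial route, at −1.32, and Birc3 at −2.59.

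Of 8 checkpoint genes 4 were higher in WT germ-like cells, namely the DNA damage kinase genes Atm at 2.05, Atr at 2.73 and Chek1 at 1.36 and the p53 inhibitor gene Mdm2 at 1.37. Trp53, which encodes p53, was lower, at 6.14 CPM against 80.4 (−3.71), and so was its target Cdkn1a at −3.18. Death receptor genes were lower in 3 of 5 and higher in 0, with Tnfrsf1a at −4.71, Ripk1 at −1.76 and the caspase-8 inhibitor Cflar at −4.56, and of 3 channel genes Vdac1 alone was lower, at −4.27. The KO library gave 1 higher and 4 lower of 8 other family genes, 1 and 6 of 15 caspase-pathway genes, 4 and 2 of 8 checkpoint genes, 0 and 3 of 5 death receptor genes and 0 and 1 of 3 channel genes.

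Between KO and WT germ-like cells 7.96% of all genes passed 0.5. Of these lists it was 1 of 7 other family genes, Bmf at −0.52, and 1 of 15 caspase-pathway genes, the inhibitor of apoptosis gene Birc3 at −0.77, and none of 9 checkpoint, 5 death receptor or 3 channel genes. In late prophase-like cells, where 5.93% of all genes passed, Casp8 was higher at 0.91 and Cflar and Bmf lower at −0.74 and −0.57. Elsewhere the checkpoint gene Chek2 was at 0.69 in Phlda2-led and −0.58 in granulosa-like cells, and Bcl2l2 at −0.51 in theca-like cells.

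The genes most like each member in their levels were found by Pearson's r of log2(CPM + 1) over 17 points, the classes and germ groups of both libraries with enough cells, which share libraries and carry-over. Bax was nearest to Smarcal1 (0.95), Snrnp25 (0.92) and Sde2 (0.91). Pmaip1 was nearest to Cd274 (0.93), Skap1 (0.91) and Myb (0.91), and the KO immune-like class, at 24.4 CPM of Pmaip1, was among the points. Bcl2 was nearest to Slc38a2, Scn2b and Myc (0.98 each), and Mcl1 to Arhgdib (0.97), Nfkbia (0.96) and Actr3 (0.96). These values are descriptions and carry no p-value.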

How the data were processed

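The authors generated the libraries with a droplet-based 3′ chemistry (version 3) and made the deposited counts, whole numbers of UMIs per gene and barcode with no normalization, with Cell Ranger 3.0.2 per the file headers. The submitters' processing notes name mm10 and Seurat 3.2.3. Settings of the counting are not given in the sources used here.

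The study's filters were applied to barcodes. WT barcodes needed between 1500 and 6500 genes and between 5500 and 40000 UMIs, and KO barcodes between 1200 and 5500 genes and between 3000 and 30000 UMIs. In both, mitochondrial UMIs had to be under 10%. Counts were scaled to 10000 per cell and log-transformed, 2000 variable genes were taken without the 10 genes and the listed apoptosis genes, and cells were clustered by the Leiden method (30 principal components, 20 neighbours, resolution 0.5). Clusters were named as cell classes from marker lists by at least 3 markers at over 2-fold in at least 10% of cells. For germ stages the 3 markers needed only any excess over clusters of other stages, in at least 10% of cells. A stage name also needed that no other list held more of the 10 leading genes. The form of these rules was set after clusters had been seen, and names are rebuilt here. A germ-like cluster of 181 cells, 81.77% of them called as doublets, was kept out of the stages but not out of the germ-like totals. Other doublets were kept, and removal of Scrublet calls (expected rate 8%) was an alternative.

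UMIs were summed by class and library and given as CPM with exact Poisson intervals. Shares carry exact Clopper-Pearson intervals, log2 ratios exact conditional binomial intervals, and ratios of balances approximate ones. All cover counting error only. With 1 library a group there is no test and no p-value. Genes that reached 100 UMIs when both sides were added were counted against log2 limits of 0.5 (KO over WT) and 1 (between cell types). Shares were repeated after thinning each cell to 3000 UMIs, which left out 0 cells. The carried-over level is the germ-like CPM of a gene times the median relative level of 8 germ markers in the class. All 10 genes were named. Of the other lists, genes past the KO over WT limit and examples of those past the germ over somatic limit were named, and some listed genes are not reported here. For likeness, the 3 genes with the highest r were named. The members, lists and limits were chosen with earlier results of these data known. The comparison of late prophase-like with recombination-like cells and 3 alternatives (WT stage proportions, carried-over transcripts taken off, cells with 5 or more Bbc3 UMIs left out) were added after values had been seen. The counting steps were tested on simulated data. Of the 27998 identifiers, 27645 (98.7%) matched GENCODE M21 (GRCm38). Tools were Python 3.11.15, numpy 2.4.6, scipy 1.17.1, pandas 2.3.3, scikit-learn 1.9.0, scanpy 1.11.5, igraph 0.11.9, matplotlib 3.10.9 and blastn 2.17.0+.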

Additional observations from a re-analysis of the deposited data

Results flagged for a closer look

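Bad, the BH3-only gene, lay on opposite sides of 0 in recombination-like and theca-like cells. The other main somatic classes did not share the theca-like direction. With carried-over germ transcripts taken off, Bad was at 0.094 in granulosa-like and 0.13 in epithelia-like cells. Its log2 ratio of KO over WT was 0.23 (0.022 to 0.43) in recombination-like cells, with 6.86 CPM in WT and 8.03 in KO, and −0.17 (−0.32 to −0.016) in theca-like cells, with 61.2 and 54.5 CPM. Over the alternatives the theca-like value ranged from −0.32 to 0.05, above 0 when cells were thinned, and it was −0.050 with carried-over germ transcripts taken off, while the recombination-like value stayed between 0.20 and 0.24. The intervals cover counting error only, each group is 1 library, and the difference between the groups was not tested.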

How the results depend on the processing

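No paired analysis was possible because each group holds 1 library. Counts of members past the limit (KO over WT) that changed: germ-like 1 without cells of many Bbc3 UMIs and 1 at WT stage proportions, recombination-like 0 thinned and 1 without those cells, late prophase-like 1 thinned. Phlda2-led cells gave 2 by marker score and 2 with a minimum of 1 UMI. Granulosa-like cells gave 1 with common limits on cells. Theca-like cells gave 0 thinned, 0 with carried-over transcripts taken off and 2 with a minimum of 1 UMI. Epithelia-like cells gave 2 with common limits, 2 with carried-over transcripts taken off and 2 with a minimum of 1 UMI, and 0 thinned and 0 without cells holding markers of another class. Late prophase-like over Phlda2-led cells gave 0 thinned and 1 by marker score in each library, and over recombination-like cells 1 thinned in each and 0 by marker score in KO. Thinning leaves fewer UMIs, so fewer members can reach 100 UMIs, and its part in the thinned counts was not tested. The germ-like balance was 0.856 with common limits in WT, and in KO 0.819 thinned and 0.912 at WT proportions. Without Bax it was 0.240 in WT and 0.226 in KO, and the side of 1 changed for Phlda2-led (0.414 and 0.418), late prophase-like (0.268 and 0.226), theca-like (0.724 and 0.826) and epithelia-like cells (0.682 and 0.756) and for WT granulosa-like cells (0.854). The summed germ-like level of the members was 237 CPM with common limits and 355 when scaled without mitochondrial, ribosomal protein and haemoglobin genes in WT, and 329 with that scaling and 235 at WT proportions in KO. Over all alternatives Pmaip1 (KO over WT) ranged from −1.42 to −0.82 in germ-like cells, −1.33 to −1.01 in recombination-like cells and −1.20 to −0.45 in late prophase-like cells, and Bcl2 from −0.76 to −0.21 in theca-like cells. The causes of other changes were not tested.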

Other observations

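The few germ-like cells with many Bbc3 UMIs also held many UMIs of Cdkn1a and Mdm2. The 4 WT cells with 5 or more Bbc3 UMIs, 1 of which held 19, were chosen by that value, so what follows describes them and tests nothing. Cdkn1a, which encodes the cell cycle inhibitor p21, had 28 UMIs in these cells, 479 CPM against 5.58 in the other WT germ-like cells (log2 ratio 6.42, 5.82 to 6.97). Bax had 29 UMIs there, 496 CPM against 82.2 (2.59, 2.01 to 3.12). Mdm2 was at 274 CPM against 83.1 (1.72, 0.91 to 2.42) and Bcl2l11 at 154 against 6.80 (4.50), while Pmaip1 had 1 UMI there (1.92, −3.39 to 4.40). The single KO cell, an entry-like cell with 18 Bbc3 UMIs, held 22 Cdkn1a UMIs (1407 CPM against 6.51) and 8 Mdm2 UMIs (512 against 73.3), with 2 Bax UMIs (0.72, −2.33 to 2.57) and 0 of Pmaip1.

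Barcodes left out only for 10% or more mitochondrial UMIs numbered 344 in WT and 266 in KO. Computed without mitochondrial genes, Bax was at 69.7 CPM in them against 89.8 in kept WT cells and at 63.7 against 87.2 in KO, while Bcl2 was at 26.3 against 9.35 and at 28.1 against 8.90. Of 8 germ markers 7 were lower in these barcodes, by log2 ratios of −0.25 to −0.56 in WT and −0.41 to −0.69 in KO, and Tex101 was at 0.12 and 0.0030, and which cell types they hold was not examined.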
